A study of Mus musculus with 6 samples.

Results

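The 10 genes described here encode secreted cytokines and growth factors (Il6, Il11, Lif, Csf1, Csf3 and Il33), the receptor chains ST2 (Il1rl1) and gp130 (Il6st), and the prostaglandin synthases cyclooxygenase 1 and 2 (Ptgs1 and Ptgs2). They were taken by symbol from a deposited expression table of 37224 Ensembl gene IDs, and each of the 10 symbols matched 1 row. The table covers mouse embryonic fibroblasts (MEF), cells grown from embryonic connective tissue, on a C57BL/6 background. RNA-seq was done on 4 groups. These were wild-type cells without arsenite, wild-type cells with low-dose sodium arsenite (an inorganic arsenic salt), Dot1L-/- cells without arsenite, and Dot1L-/- cells with it. All were kept for 24 h in fresh high-glucose DMEM with fetal bovine serum. Doses of 5 and 10 µM arsenite are listed in the protocol, without a statement of the one used for sequencing. Dot1L, the methyltransferase of lysine 79 of histone H3, is the gene lost in the mutant, called the null below. The extraction protocol speaks of 2 cell lines, so genotype and line cannot be told apart. How the null line was derived is not given in the sources used here. Each group held 1 library, so every comparison sets a library against a library and has no replicate check.

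IL-6, IL-11 and LIF are related cytokines that each bind a receptor chain of their own and then share gp130, which passes the signal through JAK kinases to the transcription factor STAT3. CSF1 and CSF3 (M-CSF and G-CSF) drive the production and survival of macrophages and neutrophils. IL-33 is a nuclear alarmin of the IL-1 family, released from damaged stromal cells, and ST2 is its receptor, made as a membrane form and a soluble decoy. Cyclooxygenases turn arachidonic acid into the precursor of all prostaglandins, PTGS1 being the largely constitutive enzyme and PTGS2 the inducible one. Fibroblasts are a known source of IL-6, LIF, CSF1 and prostaglandins, and NF-kB, AP-1, C/EBP and CREB factors are known regulators of several of these promoters.

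The sequences just before the transcription start of 3 of these genes are shown because Il6 and Ptgs2, both inducible genes, were lower in the null and with arsenite, and because Il1rl1, far higher in the null, has more than 1 start. They are the 250 bases before a RefSeq start in GRCm38.p6, 5′ to 3′ on the strand of the gene, with matches to searched motifs in capitals.
Il6, chr5:30012864-30013113, plus strand: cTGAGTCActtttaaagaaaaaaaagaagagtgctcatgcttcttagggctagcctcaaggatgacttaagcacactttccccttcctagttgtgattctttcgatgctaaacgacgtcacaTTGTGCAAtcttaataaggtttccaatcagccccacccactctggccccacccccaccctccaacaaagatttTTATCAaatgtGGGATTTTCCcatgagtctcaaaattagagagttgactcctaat
Ptgs2, chr1:150099781-150100030, plus strand: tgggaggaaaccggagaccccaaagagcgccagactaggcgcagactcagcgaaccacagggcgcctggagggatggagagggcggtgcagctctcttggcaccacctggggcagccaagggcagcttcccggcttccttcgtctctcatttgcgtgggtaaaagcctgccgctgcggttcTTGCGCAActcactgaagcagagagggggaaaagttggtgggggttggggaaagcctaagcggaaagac
Il1rl1, upstream start, chr1:40429320-40429569, plus strand: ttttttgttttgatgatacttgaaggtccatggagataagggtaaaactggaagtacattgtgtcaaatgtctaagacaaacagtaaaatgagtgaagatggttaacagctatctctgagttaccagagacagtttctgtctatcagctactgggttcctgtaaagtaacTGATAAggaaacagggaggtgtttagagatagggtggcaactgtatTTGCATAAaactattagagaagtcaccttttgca
Il1rl1, downstream start, chr1:40439379-40439628, plus strand: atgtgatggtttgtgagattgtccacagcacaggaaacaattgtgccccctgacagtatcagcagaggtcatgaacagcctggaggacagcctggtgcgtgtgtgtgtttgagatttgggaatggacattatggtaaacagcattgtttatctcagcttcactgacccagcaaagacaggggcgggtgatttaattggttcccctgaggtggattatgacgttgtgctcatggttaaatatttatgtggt
The motifs, searched on both strands, were the 10-base NF-kB consensus, AP-1 (TGANTCA), the cyclic AMP response element (TGACGTCA), C/EBP (TTNNGCAA), a TATA box (TATAAA) and a GATA motif (TGATAA). The Il6 window held an NF-kB match starting 44 bases before the start, a C/EBP match at 128 and an AP-1 match at 249. The GATA match at 55 reads TTATCA on the printed strand. The Ptgs2 window held a C/EBP match at 69 only. The upstream Il1rl1 window held a GATA match at 80 and a C/EBP match at 34, and the downstream window, 10059 bases further on, held no match. No match of these letters was found before Il6st or before the Ptgs1 start that had a window. Lif and the downstream of the 2 Il11 starts had an AP-1 match, and Csf1 an NF-kB match. Of the 2 Il33 starts, the upstream one had a TATA match at 203. The downstream Il33 start had a C/EBP match at 85 and a TATA match at 29. The Ptgs1 window and the upstream and downstream Il1rl1 windows lie inside the gene spans given further on. So do the windows of the downstream Il11 and Il33 starts, and the upstream Il11 window does in part. For Ptgs1 and Il1rl1, sequence before the first base of the span was not searched. Of 32851 windows of the same length, 3.90% held the NF-kB letters, 6.75% AP-1, 1.55% the cyclic AMP element, 9.56% C/EBP, 12.4% the TATA box and 7.94% the GATA letters. A match is a description of letters, not of binding. Mouse Il1rl1 is known to be read from a start used in mast cells and another used in fibroblasts, but the table gives totals per gene and separates neither starts nor the membrane and soluble forms.

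The unit is RPKM, the reads of a gene scaled to its length and to the depth of the library, as deposited by the authors. Depth recovered from those values was 62972880 and 64699847 reads in the wild-type and null controls and 10833103 and 11879632 in the arsenite libraries, 5.81 and 5.45 times less. Read numbers and intervals below rest on that recovery. The 95% intervals are exact and cover counting error only, not the variation between cultures, and reads without molecular identifiers are not independent molecules. The 100 genes with most reads took 16.9% and 20.6% of gene reads in the controls and 35.4% and 42.1% with arsenite. Dot1l itself had an RPKM of 30.4 and 5.71 in the wild-type control and arsenite libraries and 9.59 and 1.24 in the null, so its RNA was lower in the null libraries but not at 0. Over the 12588 genes that reached 1 RPKM in any library, the median log2 difference of (RPKM + 1) was −0.56 for arsenite in wild type and −0.53 in the null. It was −0.17 for null against wild type without arsenite and −0.28 with it. All 10 genes were among these 12588, Csf3 only through its level in the null libraries and Il11 only through its level in the wild-type libraries.

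**Figure D1:**
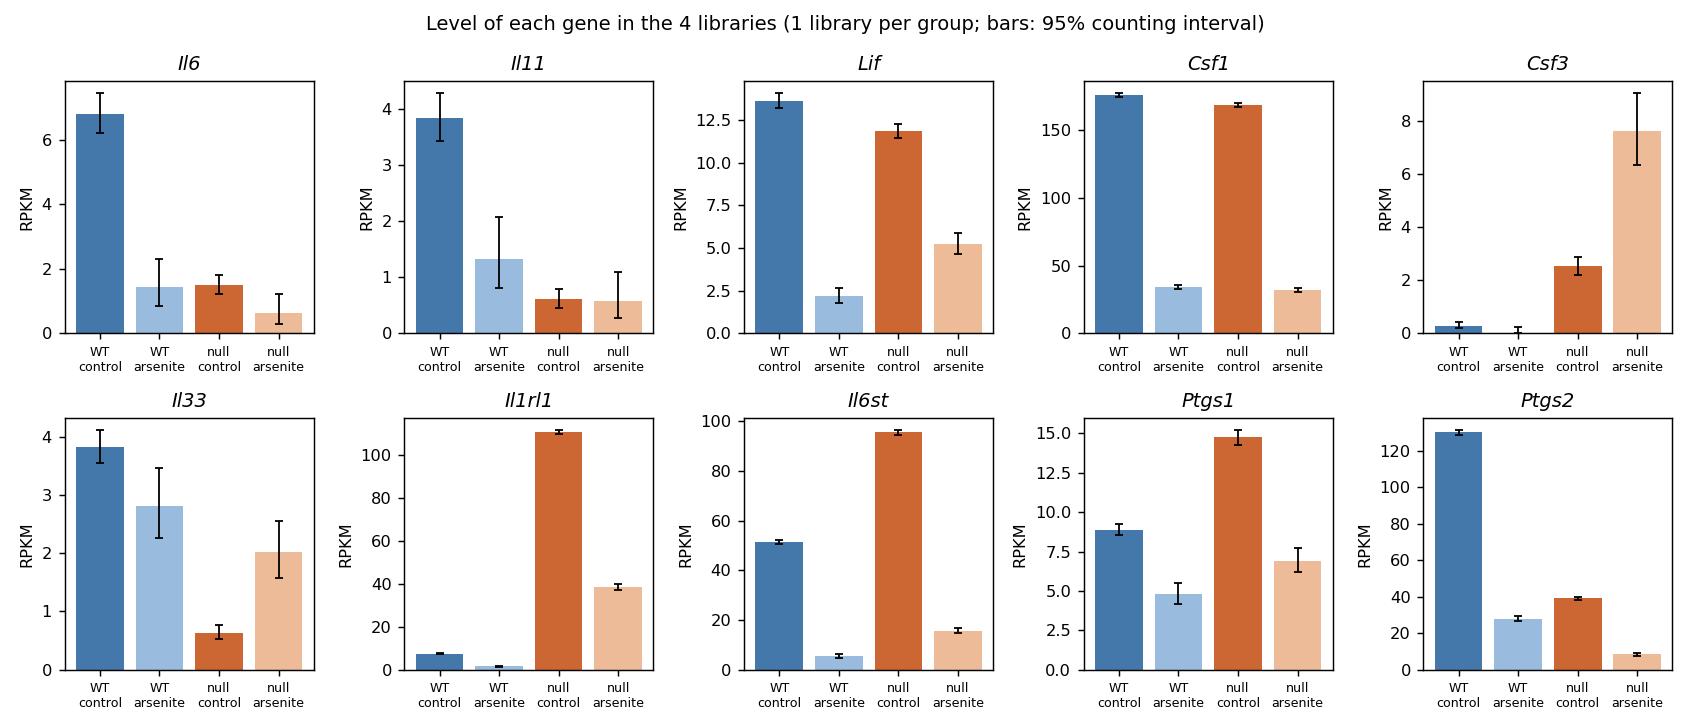
RPKM (vertical axes, each from 0 and on its own scale) of the 10 genes in the 4 libraries, 1 library per group, with WT for wild type and null for Dot1L-/-. Bars on the columns are exact 95% counting intervals; Il1rl1 stood at 111 and 38.5 in the null libraries against 7.43 and 1.53 in wild type, and Csf3 was listed at 0 in the wild-type arsenite library.

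Among the gp130 ligands, Il6 and Il11 were highest in untreated wild-type cells and low in the other 3 libraries. Il6 (ENSMUSG00000025746, chromosome 5, 30013114 to 30019975) had an RPKM of 6.81 and 1.44 in wild type without and with arsenite and of 1.48 and 0.620 in the null. The last 3 values rest on 17, 104 and 8 reads, and the intervals of neighbours among them overlapped. Arsenite went with a 4.72-fold lower level in wild type (2.91 to 8.16), and the untreated null was 4.60-fold below the untreated wild type (3.71 to 5.75). Within the null, arsenite and control differed by 2.39-fold (1.17 to 5.67), and under arsenite the null was 2.33-fold below wild type with an interval that includes no difference (0.953 to 6.24). Il11 (ENSMUSG00000004371, chromosome 7, 4772373 to 4782907) encodes a cytokine of stromal cells tied to fibrosis and bone. Its RPKM was 3.83, 1.32, 0.604 and 0.570 in the same order of libraries. It was 2.91-fold lower with arsenite in wild type (1.83 to 4.89) and 6.34-fold lower in the untreated null than in wild type (4.72 to 8.67). The null values with and without arsenite rest on 9 and 52 reads and differed by 1.06-fold, with an interval of 0.518 to 2.45.

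Lif (ENSMUSG00000034394, chromosome 11, 4257568 to 4272514), which encodes the cytokine used to keep mouse embryonic stem cells undifferentiated, did not share the low level of Il6 and Il11 in the untreated null. Wild-type cells had 13.7 RPKM without and 2.19 with arsenite, and null cells 11.9 and 5.24. The controls lay close together, 1.15-fold apart (1.10 to 1.21), and both stood above both arsenite libraries. With arsenite Lif was 6.25-fold lower in wild type (5.14 to 7.68) and 2.26-fold lower in the null (1.997 to 2.57). After correction for a dependence on gene length, given further on, the null difference was −0.19 on the log2 scale in place of −1.04. Under arsenite Lif was 2.40-fold higher in the null than in wild type (1.91 to 3.04).

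Il6st (ENSMUSG00000021756, chromosome 13, 112464070 to 112506860), the shared receptor chain gp130, had the largest fold difference with arsenite in both genotypes among the members with reads in all 4 libraries. Its RPKM was 51.3 and 5.50 in wild type without and with arsenite and 95.5 and 15.8 in the null. Both controls stood above both arsenite libraries, and at each treatment the null stood above wild type. The difference with arsenite was 9.33-fold in wild type (8.34 to 10.5), a log2 difference below which 1.37% of all genes lay, and 6.06-fold in the null (5.68 to 6.46). After length correction the log2 differences of Il6st were −1.97 in wild type and −1.50 in the null. In wild type Il6, at −2.39, was then further below 0 than Il6st. The null was 1.86-fold above wild type without arsenite (1.83 to 1.90) and 2.87-fold above it with arsenite (2.52 to 3.27). Per unit of length, the wild-type control held 7.53 Il6st reads for each Il6 read (6.87 to 8.27) and the null control 64.6 (53.3 to 79.1).

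The colony stimulating factors behaved unlike each other. Csf1 (ENSMUSG00000014599, chromosome 3, 107741048 to 107760469) was the most highly expressed of the 10 genes in both controls per unit of length. Its RPKM was 176 and 34.1 in wild type without and with arsenite and 169 and 32.1 in the null. The genotypes lay 1.04-fold apart without arsenite (1.03 to 1.06) and 1.06-fold apart with it (0.996 to 1.13). Arsenite went with a 5.17-fold lower level in wild type (4.94 to 5.41) and a 5.25-fold lower level in the null (5.02 to 5.49).

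Csf3 (ENSMUSG00000038067, chromosome 11, 98700183 to 98703631) was close to absent in wild type and present in the null, where it was higher with arsenite. It had 25 reads in the wild-type control (RPKM 0.281) and 0 with arsenite, where a floor of 3 reads corresponds to an RPKM of 0.196 and the exact 95% upper limit for 0 reads is 0.241. In the null it had 230 reads without arsenite (RPKM 2.52) and 128 with it (RPKM 7.63). The null control was 8.95-fold above the wild-type control (5.91 to 14.1), and with arsenite the null was at least 38.9-fold higher than wild type when 3 reads are put in place of 0. The exact 95% interval of that ratio begins lower, at 31.2. Within the null the arsenite library was 3.03-fold higher (2.42 to 3.78). Within wild type it was at least 1.43-fold lower against the same 3 reads, while the exact 95% interval of the ratio of arsenite to control reaches up to 0.924, close to no difference.

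Il33 (ENSMUSG00000024810, chromosome 19, 29925113 to 29960718) was lowest in the untreated null and 3.16-fold higher there with arsenite (2.31 to 4.28). Wild-type cells had 3.82 RPKM without and 2.81 with arsenite, and null cells 0.637 and 2.01. The untreated null lay 6.00-fold below the untreated wild type (4.93 to 7.35). With arsenite the genotypes were 1.40-fold apart (1.01 to 1.95), on 88 and 69 reads. In wild type the arsenite value was 1.36-fold lower (1.09 to 1.72), a log2 difference of −0.34 that was 0.22 above the median of all genes. On the scale of log2(RPKM + 1) the null difference was 0.88, below 2-fold because of the added 1 RPKM, and 1.52 with 0.1 RPKM added instead.

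Il1rl1 (ENSMUSG00000026069, chromosome 1, 40404864 to 40465418), the receptor of IL-33, showed the widest range of the 10 genes. Its RPKM was 7.43 and 1.53 in wild type without and with arsenite and 111 and 38.5 in the null, so that both null libraries stood above both wild-type libraries. The null was 14.9-fold higher without arsenite (14.4 to 15.5) and 25.2-fold higher with it (20.9 to 30.7). Of all genes, 99.7% had a lower log2 difference in each of these comparisons. With arsenite Il1rl1 was 4.87-fold lower in wild type (4.04 to 5.92) and 2.88-fold lower in the null (2.78 to 2.99). Those log2 differences, −1.74 and −1.50, were −0.48 and −0.24 with the length trend removed. Per unit of length, Il1rl1 outnumbered its ligand gene Il33 by 1.94 to 1 in the wild-type control (1.79 to 2.11) and by 174 to 1 in the null control (146 to 210). With arsenite the order was reversed in wild type, at a ratio of 0.542 (0.407 to 0.725). In the null with arsenite the ratio was 19.1 (15.1 to 24.7).

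Ptgs2 was lower with arsenite in both genotypes and lower in the null at both treatments, whereas Ptgs1 was higher in the null and less than 2-fold lower with arsenite on the log2(RPKM + 1) scale. Ptgs2 (ENSMUSG00000032487, chromosome 1, 150100031 to 150108234) had an RPKM of 130.1 and 28.1 in wild type without and with arsenite and 39.2 and 8.53 in the null. It was 4.64-fold lower with arsenite in wild type (4.38 to 4.91) and 4.60-fold lower in the null (4.17 to 5.08). The null was 3.32-fold below wild type without arsenite (3.25 to 3.39) and 3.29-fold below it with arsenite (2.94 to 3.68). Ptgs1 (ENSMUSG00000047250, chromosome 2, 36216742 to 36258593) had an RPKM of 8.90, 4.80, 14.8 and 6.91 in the same order. The null stood 1.66-fold above wild type without arsenite (1.57 to 1.75) and 1.44-fold above it with arsenite (1.20 to 1.73). Ptgs1 was 1.85-fold lower with arsenite in wild type (1.60 to 2.15) and 2.13-fold lower in the null (1.90 to 2.40). Its log2 differences of −0.77 and −0.99 were −0.21 and −0.46 after median centring and −0.03 and −0.22 after length correction. The ratio of Ptgs2 to Ptgs1 per unit of length was therefore 14.6 in the wild-type control (14.0 to 15.3) and 5.85 with arsenite (5.04 to 6.82). It was 2.66 in the null control (2.56 to 2.76) and 1.23 in the null with arsenite (1.06 to 1.43).

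Arsenite was then compared with control over all 10 genes, to describe the response in each genotype. In wild type, 7 of the 10 were at least 2-fold lower on the scale of log2(RPKM + 1) and none higher, where 35.7% of all 12588 genes were lower and 12.8% higher. The 7 were Il6, Il11, Lif, Csf1, Il1rl1, Il6st and Ptgs2. The median of the 10 was −1.71 against −0.56 for all genes, and all 10 values were below 0, but Csf3 and Il33 came out above 0 once the all-gene median was subtracted, and Il33 also after scaling to the 75th percentile or removing the length trend. In the null, 5 of the 10 were at least 2-fold lower (Lif, Csf1, Il1rl1, Il6st and Ptgs2) and Csf3 was higher, against 37.1% of all genes lower and 15.2% higher. The median was −1.02 against −0.53 for all genes. Among all genes called, 26.4% were higher in wild type and 29.0% in the null, which became 52.8% and 49.6% after median centring. After that centring 6 members were lower and none higher in wild type, where 19.4% of all genes were lower and 21.6% higher. In the null 3 were lower and 2 higher (Csf3 and Il33), against 23.8% of all genes lower and 23.4% higher.

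**Figure D2:**
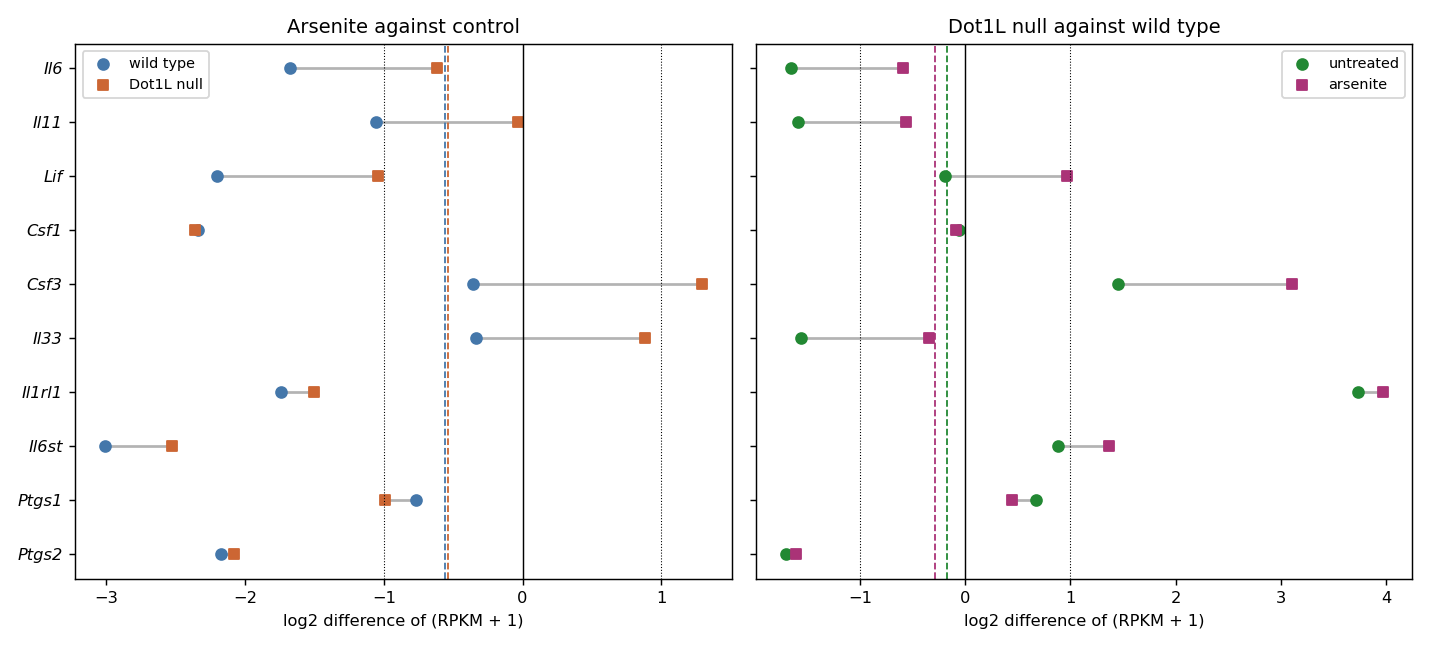
Log2 difference of (RPKM + 1) (horizontal axes) of each gene for arsenite against control in both genotypes (left) and for the null against wild type at both treatments (right). Dotted lines mark 2-fold and dashed lines the median of all 12588 genes in the matching colour; Csf1 and Ptgs2 overlie each other between genotypes on the left, while Csf3 and Il33 lie on opposite sides of 0.

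The null was compared with wild type to describe the effect of genotype. Without arsenite, Il1rl1 and Csf3 were at least 2-fold higher and Ptgs2, Il6, Il11 and Il33 at least 2-fold lower, where 6.45% of all genes were higher and 14.7% lower. The median of the 10 was −0.13 against −0.17 for all genes. With arsenite, Il1rl1, Csf3 and Il6st were at least 2-fold higher and Ptgs2 lower, against 8.75% of all genes higher and 16.9% lower, with a median of 0.18 against −0.28. Lif, at a log2 difference of 0.97, lay just under 2-fold higher, and it was past 2-fold after median centring (1.25), 75th percentile scaling (1.23) or length correction (1.31) and with 0.1 RPKM added (1.23). Il6, Il11 and Il33, the members 2-fold lower in the untreated null that were not so with arsenite, had RPKM values between 0.570 and 2.81 in the arsenite libraries. Of all genes called, 30.5% were higher without arsenite and 34.1% with it, and 43.9% and 57.1% after median centring. The signs of Csf1 in both comparisons also changed with that centring, being −0.06 and 0.11 without arsenite and −0.08 and 0.20 with it.

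Subtracting the log2 difference with arsenite in wild type from that in the null gave a value that was at least 1 for 5 of the 10 genes and at most −1 for none, where 12.1% of all genes were positive and 12.8% negative by that measure. The 5 were Csf3 (1.65), Il33 (1.22), Lif (1.16), Il6 (1.06) and Il11 (1.03), and the median of the 10 was 0.76 against −0.06 for all genes. Of these, Il6, Il11 and Il33 were also among the genes low in the untreated null, and that library enters both comparisons. For Il6 and Il11 the counting intervals of the arsenite fold in wild type and in the null overlapped. These 2 genes had 8 to 19 reads in the arsenite libraries. Overlap of intervals is not a test of the difference between the genotypes, which was not tested. Csf1 (−0.02), Ptgs2 (0.10) and Ptgs1 (−0.22) were near 0. With 5 RPKM added in place of 1, no member reached 1.

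**Figure D3:**
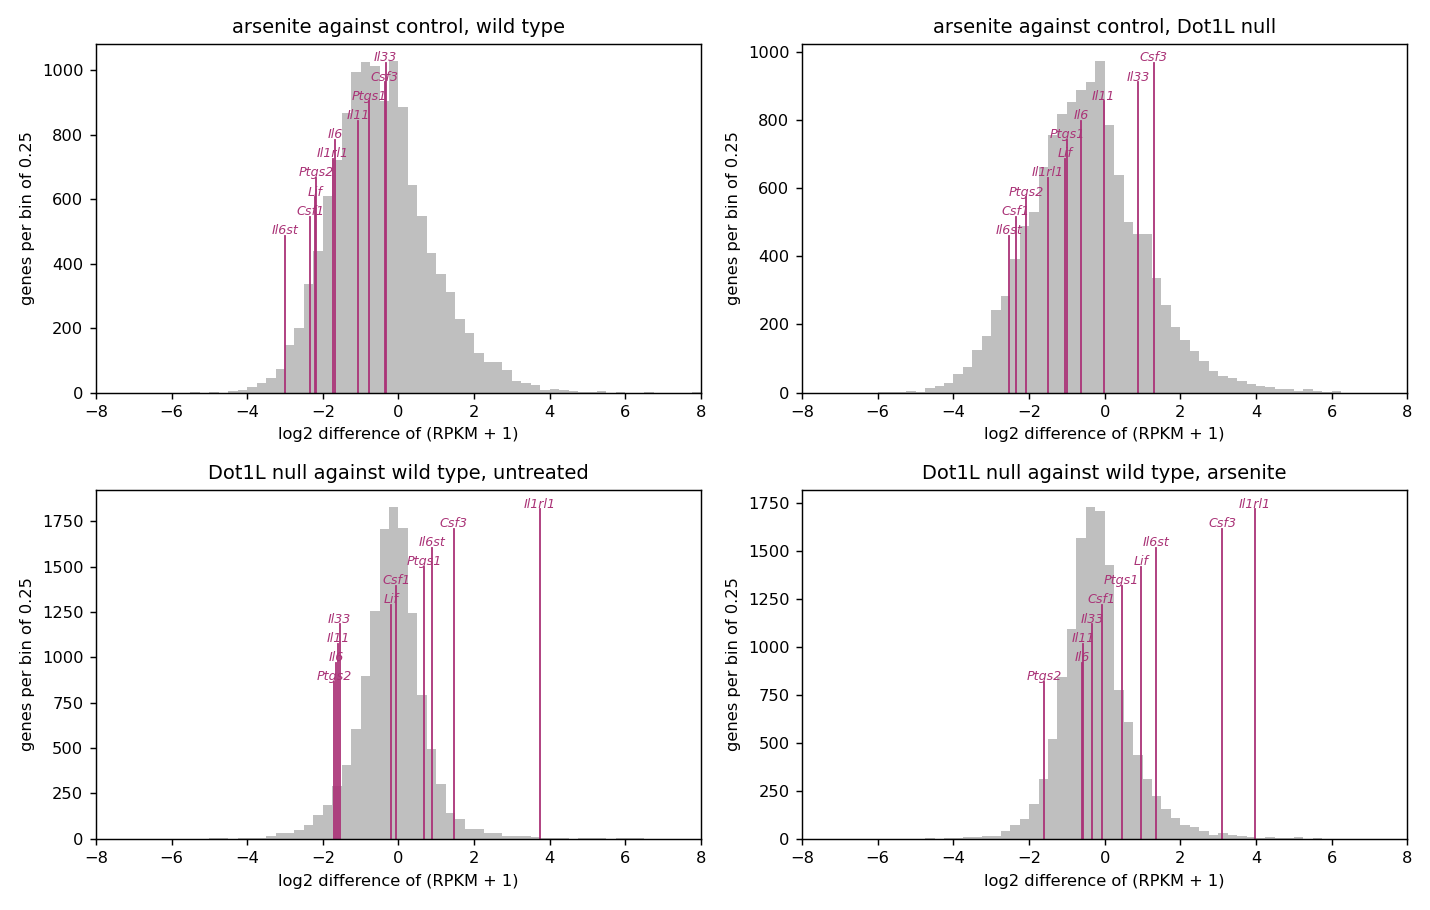
Number of genes (vertical axes) by log2 difference of (RPKM + 1) (horizontal axes, bins of 0.25) in the 4 comparisons, over 12588 genes, with the 10 genes marked by labelled lines whose height has no meaning. In each arsenite comparison 1 gene lies beyond the axis limit of 8; Il1rl1 lies in the upper tail of both genotype comparisons, and Il6st towards the lower edge of the arsenite comparison in wild type.

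Differences with arsenite went with gene length across all genes. In wild type the median was 1.01 for the 737 genes of 500 to under 1000 bases, 0.33 for 1000 to under 2000, −0.44 for 2000 to under 4000 and −1.08 for 4000 to under 8000, and in the null 1.14, 0.31, −0.43 and −1.04. The recovered lengths of the members ran from 1087 bases (Il6), 1330 (Il11) and 1413 (Csf3) over 2886 (Il33), 3884 (Ptgs1), 4143 (Ptgs2) and 4350 (Lif) to 5207 (Il6st), 5262 (Csf1) and 6894 (Il1rl1). Il6 and Il11 were thus lower with arsenite in wild type while the median of genes of 1000 to under 2000 bases was above 0, and without the trend their log2 differences were −2.39 and −1.58 in place of −1.68 and −1.06. For Il1rl1 the reverse held, as given above. With the trend removed 6 members were at least 2-fold lower in wild type and none higher, where 15.4% of 12155 genes were lower and 15.8% higher. In the null 4 were lower and 1 higher, against 21.0% lower and 20.0% higher. They were not the genes called before: Lif and Il1rl1 (−0.19 and −0.24) were no longer past 2-fold and Il6 (−1.34) was, and the higher gene was Il33 (1.34) in place of Csf3 (0.86). The part of length in the members' differences was not tested further.

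**Figure D4:**
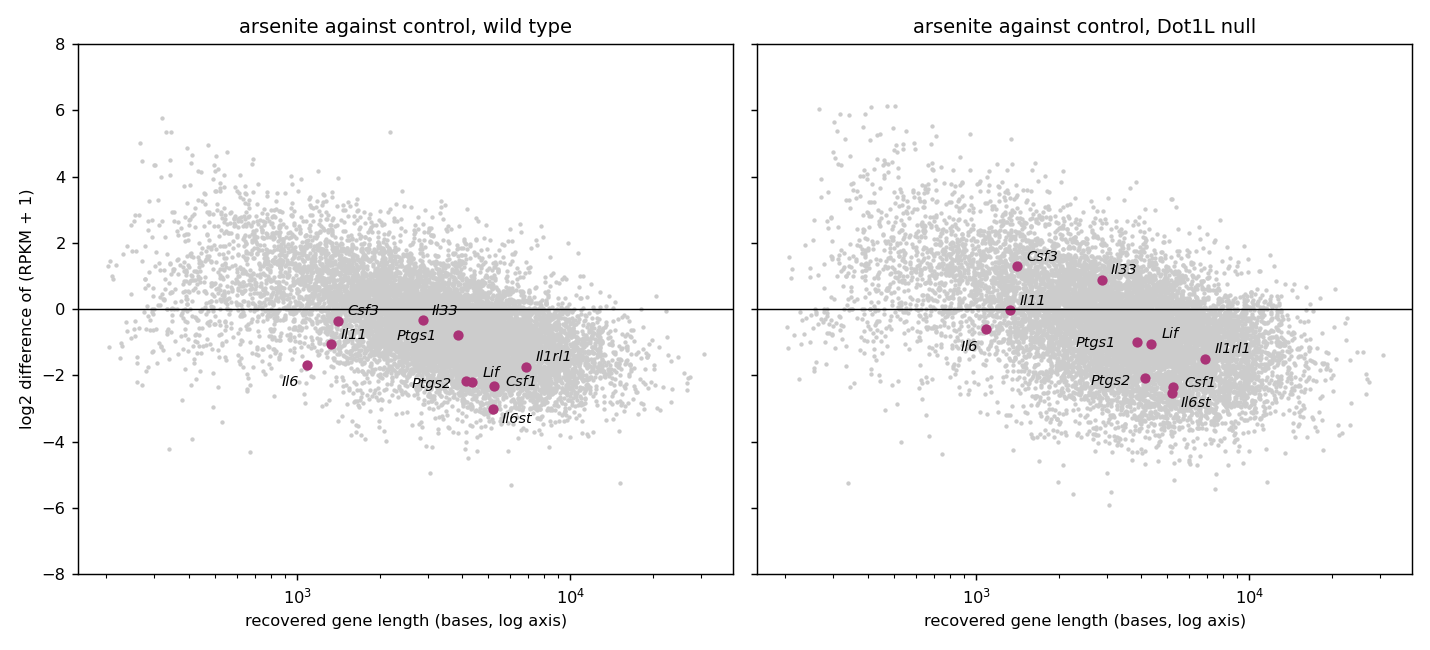
Log2 difference of (RPKM + 1) with arsenite (vertical axes) against recovered gene length in bases (horizontal log axes), for genes of at least 200 bases in grey and the 10 genes labelled. The cloud slopes down with length; Il6 at 1087 bases lies under most genes of its length in wild type, and Il1rl1 at 6894 bases lies within its cloud in both genotypes.

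The other genes of these pathways were described by 9 lists. With arsenite, 35.7% of all genes were at least 2-fold lower in wild type and 37.1% in the null, and 12.8% and 15.2% higher. With the length trend removed, 15.4% and 21.0% were lower and 15.8% and 20.0% higher. Of 12 receptors, kinases and STATs of the IL-6 family past the filter (13 listed), 11 were at least 2-fold lower with arsenite in wild type and none higher (median −1.66), and 6 were lower and 1 higher in the null (−0.94). Stat3, the transcription factor these cytokines activate, had an RPKM of 27.6 and 2.41 in wild type without and with arsenite and 18.5 and 3.57 in the null. The kinase gene Jak1 stood at 30.4, 4.25, 29.0 and 4.30 in the same order, and Jak2 at 44.4, 5.40, 12.04 and 4.85. These are long transcripts, and length correction left 5 lower and 1 higher in wild type, and 3 lower and 3 higher in the null. Of 7 STAT3 feedback and early target genes (8 listed), 4 were lower in wild type (median −1.24) and 2 in the null (0.12), with none higher. Socs3, the feedback inhibitor of gp130 signalling, was at 22.6, 4.25, 12.4 and 7.25 RPKM. Bcl3, a nuclear NF-kB cofactor, was at 13.8, 5.13, 3.10 and 7.01, lower with arsenite in wild type but not in the null. Pim1 went the other way, at 17.1, 9.03, 14.4 and 1.75, with the larger decrease in the null. The null minus wild-type difference of the arsenite effects was at least 1 for 4 of the 7 and at most −1 for 1, Pim1. With the length trend removed, 1 of the 7 was lower and 3 were higher in the null.

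Of the 7 listed IL-6 family ligands other than the members, 3 passed the filter, and none was past 2-fold with arsenite in wild type. In the null Ctf1 was higher and Clcf1 lower, with log2 differences of 1.19 and −1.64, and after length correction none was past 2-fold (0.69 and −0.91 for these genes). Ctf1, which encodes cardiotrophin 1, was at 3.70 and 4.32 in wild type and at 1.11 and 3.82 in the null. Clcf1, which encodes a ligand of the ciliary neurotrophic factor receptor, was at 21.1 and 13.5 in wild type and at 32.1 and 9.59 in the null. Of 5 colony stimulating factor genes other than the members, 2 passed the filter. Both were at least 2-fold lower in the untreated null, where 14.7% of all genes were. Csf2, which encodes GM-CSF, had an RPKM of 9.31 and 5.54 in wild type without and with arsenite and of 0.116 and 2.53 in the null. Like Il33 it was thus lowest in the untreated null and higher there with arsenite. Csf2ra, a GM-CSF receptor chain, was at 15.01 and 11.5 in wild type and 1.39 and 0.637 in the null.

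Of 15 genes of the IL-1 and IL-33 pathway (18 listed), 8 were at least 2-fold lower with arsenite in wild type (median −1.12) and 8 in the null (median −1.002), with 1 higher in the null. Among all genes 35.7% and 37.1% were lower. With the length trend removed 1 was lower in wild type, and 3 were lower and 2 higher in the null. Il1rn, which encodes the IL-1 receptor antagonist, was higher in the null at both treatments, as Il1rl1 was, with RPKM values of 1.70 and 0.748 in wild type and 17.0 and 14.1 in the null. Il18 stood at 2.76 and 4.27 in wild type and 5.30 and 23.3 in the null. Il1r1, the IL-1 receptor, was at 8.58 and 1.48 in wild type and 6.91 and 0.283 in the null.

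None of 7 prostaglandin synthesis genes other than the members (10 listed) was past 2-fold with arsenite in wild type (median 0.04), and 2 were higher and 2 lower in the null (−0.22). Length correction gave 1 higher and none lower in wild type and the counts of 2 and 2 again in the null. Ptges, the inducible prostaglandin E synthase that acts after PTGS2, had an RPKM of 0.299 and 0.352 in wild type and 2.26 and 9.68 in the null. Pla2g4a, the phospholipase that frees arachidonic acid, was at 0.112 and 0.145 in wild type and 5.29 and 0.316 in the null. Akr1b8, an aldo-keto reductase whose reads could be shared with close relatives, was at 52.7, 83.9, 39.6 and 187 in the same order. Of 5 genes of prostaglandin receptors, transport and breakdown (13 listed), 1 was higher and 1 lower with arsenite in each genotype, and length correction gave 2 higher and none lower in wild type and 2 higher and 1 lower in the null. The lower gene was Abcc4, an exporter of prostaglandins, with log2 differences of −1.58 in wild type (−0.46 after length correction) and −3.33 in the null. Slco2a1, a prostaglandin uptake transporter, was at 1.15 and 1.10 in wild type and 22.9 and 19.7 in the null. Ptgr1, a prostaglandin reductase, was 2-fold higher with arsenite in both, at 10.1 and 25.0 RPKM in wild type and 3.55 and 9.20 in the null.

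Of 16 transcription factors of inducible cytokine promoters (18 listed), 12 were at least 2-fold lower with arsenite in wild type (median −1.79) and 9 in the null (−1.11), with none higher. Nfkb1, which encodes the NF-kB subunit p50, had an RPKM of 44.1 and 4.08 in wild type and 23.9 and 1.64 in the null. The AP-1 gene Fosl2 was at 58.7 and 5.88 in wild type and 44.4 and 6.33 in the null. With the length trend removed 11 were lower in wild type, and 5 were lower and 1 higher in the null. Of 12 proteins of cytokine mRNA decay and stability, 6 were lower in wild type (median −0.93) and 5 in the null (−0.88). The shares of all genes were 35.7% and 37.1%. Zfp36l2, which encodes a decay factor of AU-rich mRNAs, was at 59.9, 9.83, 59.2 and 11.3 RPKM in the 4 libraries. Length correction left 3 lower and 2 higher in wild type, and 3 lower and 1 higher in the null. After it 15.4% and 21.0% of all genes were lower. These counts describe the lists beside the background shares given above, and nothing was tested.

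**Figure D5:**
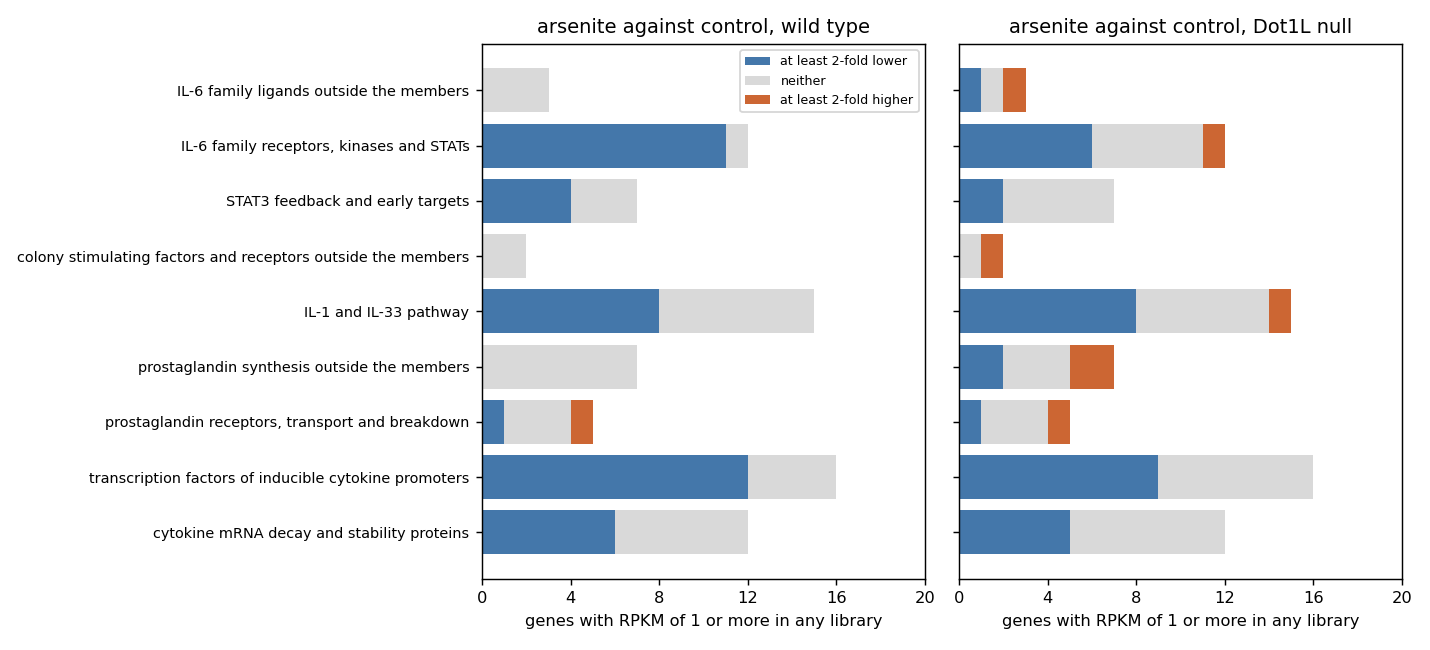
Number of genes past the filter (horizontal axes) in each of 9 pathway lists that were at least 2-fold lower, neither or at least 2-fold higher with arsenite, in wild type (left) and the null (right). In wild type 11 of 12 IL-6 family receptors, kinases and STATs and 12 of 16 transcription factors were lower, and none of the 7 prostaglandin synthesis genes was past 2-fold. Over all genes 35.7% were lower in wild type and 37.1% in the null.

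The cell type was checked with marker lists. Of 11 fibroblast markers 9 passed the filter, while Thy1 was listed at 0 in all 4 libraries and Lum reached at most 0.0459 RPKM. With arsenite 7 of the 9 were at least 2-fold lower and 1 higher in wild type, against 35.7% and 12.8% of all genes. In the null 4 were lower and 1 higher, against 37.1% and 15.2%. Length correction gave 6 lower and 1 higher in wild type, and 1 lower and 2 higher in the null. The summed RPKM of the 11 fibroblast markers was 2723 and 4998 in wild type without and with arsenite and 2305 and 12128 in the null. The higher sums with arsenite came from S100a4, at 688 and 4191 in wild type and 949 and 10957 in the null, while the collagen gene Col1a1 was at 335 and 63.9 in wild type and 133 and 72.2 in the null. Macrophage and leukocyte markers, 4 of 12 past the filter, summed to 24.5 and 18.5 in wild type and 4.95 and 11.9 in the null, with Ptprc at most at 0.00819. Of these, Cd14 was at 21.1, 11.6, 1.16 and 1.71 RPKM. Mast cells and basophils carry ST2, and 1 of 9 of their markers passed the filter. They summed to 1.31 and 10.4 RPKM in wild type, nearly all of it Mcpt8 (1.24 and 10.4), and to 0.104 and 0.0395 in the null. Fcer1a and Mcpt4 were at 0 in all 4 libraries. Kit and Cpa3 were at 0.00272 and 0.0109 in the wild-type control and at 0 elsewhere. Ms4a2, Tpsb2 and Cma1 were at 0.0117, 0.0143 and 0.0288 in the null control and at 0 elsewhere. Of 8 endothelial and of 8 epithelial markers 1 each passed the filter (Cdh5 and Cdh1), and the lists summed to at most 2.25 and 3.27 RPKM. The part of any of these cell types in the members' differences, that of Il1rl1 included, was not tested. Fewer cells of a type cannot be told apart from less RNA per cell.

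The genes with the most similar pattern over the 4 libraries were found for the 3 members with the widest range, by the distance between centred profiles of log2(RPKM + 1) among 11239 genes. For Il1rl1 these were Hoxb9 (distance 0.66), Col18a1 (0.80) and Fgf7 (1.00), against a median distance of 4.40 over all genes. Hoxb9 had RPKM values of 3.23 and 0.646 in wild type and 37.7 and 19.9 in the null. For Il6st they were Ddit4 (0.24), Vasn (0.38) and Ahnak2 (0.45), against a median of 2.73. For Ptgs2 they were Ezr (0.07), Gpc1 (0.11) and Dot1l (0.15), against a median of 2.19. Profiles over 4 libraries, each a group of its own, describe likeness of pattern and nothing further.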

How the data were processed

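RNA-seq of 4 libraries of mouse embryonic fibroblasts was used, and 2 H3K27ac ChIP-seq libraries of the series were not analysed here. The authors deposited RPKM values for 37224 Ensembl gene IDs, of which 35449 had a symbol. TopHat, HTSeq, Bowtie, deepTools and the build mm10 are named in the submitters' processing notes, without versions or roles. No source used here gives the annotation, the gene lengths or how strand was handled in counting. Libraries were strand-specific and depleted of ribosomal RNA, per the labels' protocols, whereas the molecule label reads polyA RNA.

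Depth was recovered as the most frequent value that turned RPKM and annotated span into 1 read over small RNA genes, and each gene's length as the shortest that made its reads whole (relative tolerance 1e-12), which succeeded for 21617 of 21617 genes above 0. Where a recovered length is a whole fraction of the true one, reads are too few and intervals too wide. The recovered length equalled the annotated span in 348 of 501 small RNA genes. Recovery of lengths and reads was checked on simulated data with the depth given, so recovery of depth was not checked there. The chosen depth was the value of 82 and 38 small RNA genes in wild type without and with arsenite, and of 96 and 22 in the null. The next most frequent value was that of 44, 13, 20 and 15 genes in the same order. Differences are log2((RPKM + 1)/(RPKM + 1)), which understates those of low genes, over genes that reached 1 RPKM in any library; 2-fold was the threshold. Folds in the text are ratios of RPKM with exact conditional (Clopper-Pearson) 95% intervals of the reads, computed with scipy 1.17.1. With 1 library per group no p-value was computed. The length trend was a lowess fit (fraction 0.3, statsmodels 0.14.6) on log2 length, so removing it also centres the differences. Alternatives changed the added RPKM (0.1 or 5), the filter (5 or none), the scaling, the length trend and the depth. Positions and promoter windows are from RefSeq GRCm38.p6; 9 of 10 members had a window. RefSeq models overlap Il6, Il11, Csf1, Csf3 and Il33 (A230098N10Rik, Tmem190, Gm40121, Gm38985 and Gm41832), and their reads cannot be told apart without the strand setting. The members were all named; of each list, genes were named from the 4 with the largest difference in any comparison, except markers. Members, lists and motifs were chosen with earlier results of these data known.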

Additional observations from a re-analysis of the deposited data

Results flagged for a closer look

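Csf3 and Il33 differed with arsenite in opposite directions in the 2 genotypes, with 1 library on each side. For Csf3 the log2 difference in the null minus that in wild type was 1.65: the RPKM went from 0.281 in the wild-type control to 0 with arsenite, and from 2.52 to 7.63 in the null. For Il33 it was 1.22, with RPKM values of 3.82 and 2.81 in wild type and 0.637 and 2.01 in the null. In both genes the counting intervals of both ratios left out 1. The difference between the genotypes was not tested against replicate error. With the all-gene median subtracted both values were above 0 in wild type as well (0.20 for Csf3 and 0.22 for Il33).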

How the results depend on the processing

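No paired analysis was possible because each group holds 1 library and no test was made. The alternatives were set beside the counts of members past 2-fold, 10 counts in all. All 10 stayed within 1.5 times with no filter, with the length trend removed and with all libraries thinned to the shallowest. Adding 5 RPKM left 4 members lower and 0 higher with arsenite in wild type and in the null respectively (7 and 1 as reported). It also left 1 higher and 1 lower in the untreated null against wild type (2 and 4) and 0 with a positive difference of the arsenite effects (5). Adding 0.1 RPKM gave 2 members higher with arsenite in the null and 3 lower in the null against wild type under arsenite (1 and 1). Median centring gave 2 higher and 3 lower with arsenite in the null (1 and 5), and 75th percentile scaling gave 2 and 3 as well, and 3 positive differences of the arsenite effects (5). A filter at 5 RPKM left out Il11 and Il33, with 2 lower in the untreated null (4) and 3 positive differences (5). No member past 2-fold changed sign under any of the 8 alternatives. Of single member values, 15 dropped under 2-fold with 5 RPKM added. The full set of 50 includes values that were under 2-fold as reported and so could not drop. The arsenite depth limits Il6, Il11 and Csf3, which had 0 to 19 reads in the arsenite libraries apart from Csf3 in the null (128).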
